A study of Homo sapiens with 18 samples.

Results

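MYC, MAX and the MXD proteins form a network of transcription factors that share a DNA sequence and a partner. MYC, MYCN and MYCL activate genes of growth, ribosome production and metabolism as dimers with MAX, while MXD1, MXD3, MXD4, MXI1 and MNT pair with the same MAX and recruit SIN3 and histone deacetylases to repress overlapping genes. MLX is a related partner protein that binds some MXD proteins and MNT and also the glucose-responsive factors MLXIP (MondoA) and MLXIPL. MYC is frequently amplified in ovarian cancer, and CARM1, an arginine methyltransferase, is a coactivator of transcription. The 10 genes MYC, MYCN, MYCL, MAX, MXD1, MXD3, MXD4, MXI1, MNT and MLX were taken from the gene count table by symbol. Each had 1 row among the 57736 genes of the table, and all 10 were among the 17317 genes that passed the filter on low counts. MYCN passed through the libraries without the knockout, where its lowest count was 28, while its count in a CARM1 knockout library was 0 to 2. On GRCh37, the build of the files, MYC (ENSG00000136997) lies at chr8:128747680-128755197, MYCN (ENSG00000134323) at chr2:16080672-16087129 and MYCL (ENSG00000116990) at chr1:40361100-40367928. MAX (ENSG00000125952) lies at chr14:65472892-65569413, and MLX (ENSG00000108788) and MNT (ENSG00000070444) lie on chromosome 17, at chr17:40719090-40725257 and chr17:2287367-2304398. MXD1 (ENSG00000059728) is at chr2:70124820-70170077, MXD3 (ENSG00000213347) at chr5:176728462-176739758, MXD4 (ENSG00000123933) at chr4:2249159-2263836 and MXI1 (ENSG00000119950) at chr10:111967363-112047123.

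To follow the network under endoplasmic reticulum (ER) stress, mRNA was read in A1847 cells, an established line of high-grade serous ovarian cancer, by sequencing of mRNA 3′ ends. There were 18 libraries in 6 groups of 3 replicates. Control cells, which the labels call wild type for CARM1 and XBP1, were given vehicle or tunicamycin at 5 μg/ml for 8 h, a drug that blocks N-glycosylation and so loads the ER with unfolded proteins. CARM1 knockout cells, made with a lentiviral CRISPR guide and puromycin selection, and XBP1 knockdown cells, made with a short hairpin RNA against the mRNA of the stress factor XBP1, had the same pair of treatments. Whether the knockout line was a clone or a pool, and whether the control cells carried a control vector, is not stated in the sources used here. Nothing in the labels says that replicates came from separate cultures, so p-values measure only the spread between these libraries. In such bulk samples, fewer cells that make an mRNA and less mRNA per cell cannot be told apart.

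The library totals ranged from 9367462 to 13917212 counts. Levels are given as CPM, counts scaled to a common library size with the TMM factors of edgeR, a method that aligns the bulk of the genes between libraries. With vehicle, CARM1 was at 162 ± 2.7 CPM (SD, n = 3) in the control and 74.2 ± 3.1 in the knockout, and a 3′ read away from the edited site does not by itself show loss of the protein. XBP1 was at 45.9 ± 4.5 CPM in control cells and at 25.4 ± 1.3 in knockdown cells with vehicle. The 6 CARM1 knockout libraries stood apart. Their correlation of log2 CPM with the other 12 libraries was 0.73 to 0.775, while control and knockdown libraries correlated at 0.961 to 0.987. The summed level of 9 epithelial markers was 310.8 to 332 CPM in vehicle-treated control libraries and 2676 to 2770 in the knockout libraries, and that of 5 fibroblast markers was 1055 to 1133 and 462 to 501. The epithelial markers CDH1, PAX8, MUC16 and WT1 had at most 3 counts in every vehicle-treated control library. The epithelial markers KRT19 and MUC16 and the fibroblast markers PDGFRA and THY1 had at most 3 in every vehicle-treated knockout library. Of 8 epithelial markers tested, 7 were called higher and 1 lower in the knockout with vehicle, by the test described below. Of 5 fibroblast markers, 1 was called higher and 3 lower, and 1 was not called. Of all genes, 38.8% were called higher and 35.3% lower. The epithelial markers PAX8 and WT1 had at most 3 counts in every library without the knockout. They passed the filter on low counts through the knockout libraries, so their direction here was set by the filter. Blood and endothelial markers summed to at most 1.122 CPM in any library. The part of this difference in the knockout results below was not tested. The epithelial sum was 462.4 to 488.8 CPM in tunicamycin-treated control libraries and 130.5 to 143.9 in vehicle-treated knockdown libraries, and its part in those comparisons was not tested either. Comparisons that do not name the knockout were fitted without its libraries, but the filter on low counts and the TMM factors were set over all 18 libraries.

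The sequence that joins the network is the E-box CACGTG, which MYC-MAX, MXD-MAX and MNT-MAX dimers all bind. RefSeq promoters on GRCh38.p14, running from 250 bases before to 50 bases after a start site, matched 9 of the 10 members, all but MYC, with 12 promoters. Letters were searched on both strands: the E-box CACGTG, the XBP1 and ATF6 core TGACGTG, the ATF4 site TGATGNAAT and the NF-Y box CCAAT. The E-box was in 3 of the 12 promoters, those of MXD4, MNT and MLX, and in 7.26% of all 35116 promoters of the table. CCAAT was in 4 of the 12, those of MXD1, MXD3, MXD4 and MLX, and in 34.6% of all promoters. Neither TGACGTG nor TGATGNAAT was in any of the 12, and they were in 1.97% and 0.991% of all promoters. The 250 bases before the start site are shown for the 3 members with an E-box and for MXD1, the MXD gene with the largest tunicamycin response, with E-boxes and NF-Y boxes in capitals. Read 5′ to 3′ on the gene's strand, they cover chr4:2262110-2262359 (minus strand, MXD4), chr17:2401061-2401310 (minus strand, MNT), chr17:42566850-42567099 (plus strand, MLX) and chr2:69914859-69915108 (plus strand, MXD1). The E-box starts 238 bases before the start site in MXD4, 193 before it in MNT and 50 before it in MLX.
MXD4: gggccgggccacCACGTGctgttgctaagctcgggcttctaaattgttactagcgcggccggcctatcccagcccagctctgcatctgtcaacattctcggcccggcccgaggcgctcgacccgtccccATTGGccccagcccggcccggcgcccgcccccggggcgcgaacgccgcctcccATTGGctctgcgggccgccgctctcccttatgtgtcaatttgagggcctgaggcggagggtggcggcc
MNT: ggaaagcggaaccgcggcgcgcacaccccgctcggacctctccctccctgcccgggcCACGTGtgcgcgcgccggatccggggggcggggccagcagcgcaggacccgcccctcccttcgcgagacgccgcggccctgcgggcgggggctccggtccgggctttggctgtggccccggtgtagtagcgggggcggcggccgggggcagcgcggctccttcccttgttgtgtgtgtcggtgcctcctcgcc
MLX: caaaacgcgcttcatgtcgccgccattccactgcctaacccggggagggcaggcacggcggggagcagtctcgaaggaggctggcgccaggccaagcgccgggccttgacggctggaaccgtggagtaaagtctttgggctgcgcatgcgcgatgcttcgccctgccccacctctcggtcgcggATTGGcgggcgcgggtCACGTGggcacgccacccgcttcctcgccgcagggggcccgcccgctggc
MXD1: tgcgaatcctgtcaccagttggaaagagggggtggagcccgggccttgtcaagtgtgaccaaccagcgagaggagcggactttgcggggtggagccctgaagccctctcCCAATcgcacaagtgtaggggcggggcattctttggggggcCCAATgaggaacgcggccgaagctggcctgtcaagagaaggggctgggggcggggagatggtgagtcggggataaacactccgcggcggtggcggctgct
A match in these windows is a description of letters, and no binding data were used here.

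Tunicamycin changed most of the network in control cells. Among the 10 members, 6 were called higher and 2 lower at an adjusted p below 0.05 (edgeR quasi-likelihood test, Benjamini-Hochberg over all genes tested), where 21.4% of all genes tested were called higher and 20.4% lower. The median log2 fold change was 0.37 over the members and −0.00044 over all genes. The MYC family genes went different ways. MYC was at 17.1, 17.7 and 20.4 CPM with vehicle and at 18.9, 22.01 and 20.4 CPM with tunicamycin. The treatments overlapped, and the log2 fold change of 0.15 (standard error 0.11) did not pass the test (adjusted p = 0.3). MYCN, the family member best known from neural tissue and neuroblastoma, was at 6.11, 6.85 and 7.23 CPM with vehicle and at 2.74, 2.31 and 2.96 CPM with tunicamycin. All tunicamycin libraries lay below all vehicle libraries, and MYCN fell by 1.33 on the log2 scale (standard error 0.19, adjusted p = 2.45e-05). Such a lack of overlap between these treatments was seen for 49.8% of all genes tested. MYCL, the family member first found in lung cancer, was at 0.850, 1.69 and 1.61 CPM with vehicle and at 8.14, 6.51 and 7.36 CPM with tunicamycin. The treatments did not overlap, and MYCL rose by 2.39 on the log2 scale (standard error 0.24, adjusted p = 5.26e-07), the largest change of a member in control cells. MAX, the shared partner, was at 67.3, 66.4 and 69.8 CPM with vehicle and at 102.9, 103.9 and 94.6 CPM with tunicamycin, and rose by 0.57 (standard error 0.06, adjusted p = 1.82e-06).

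**Figure D1:**
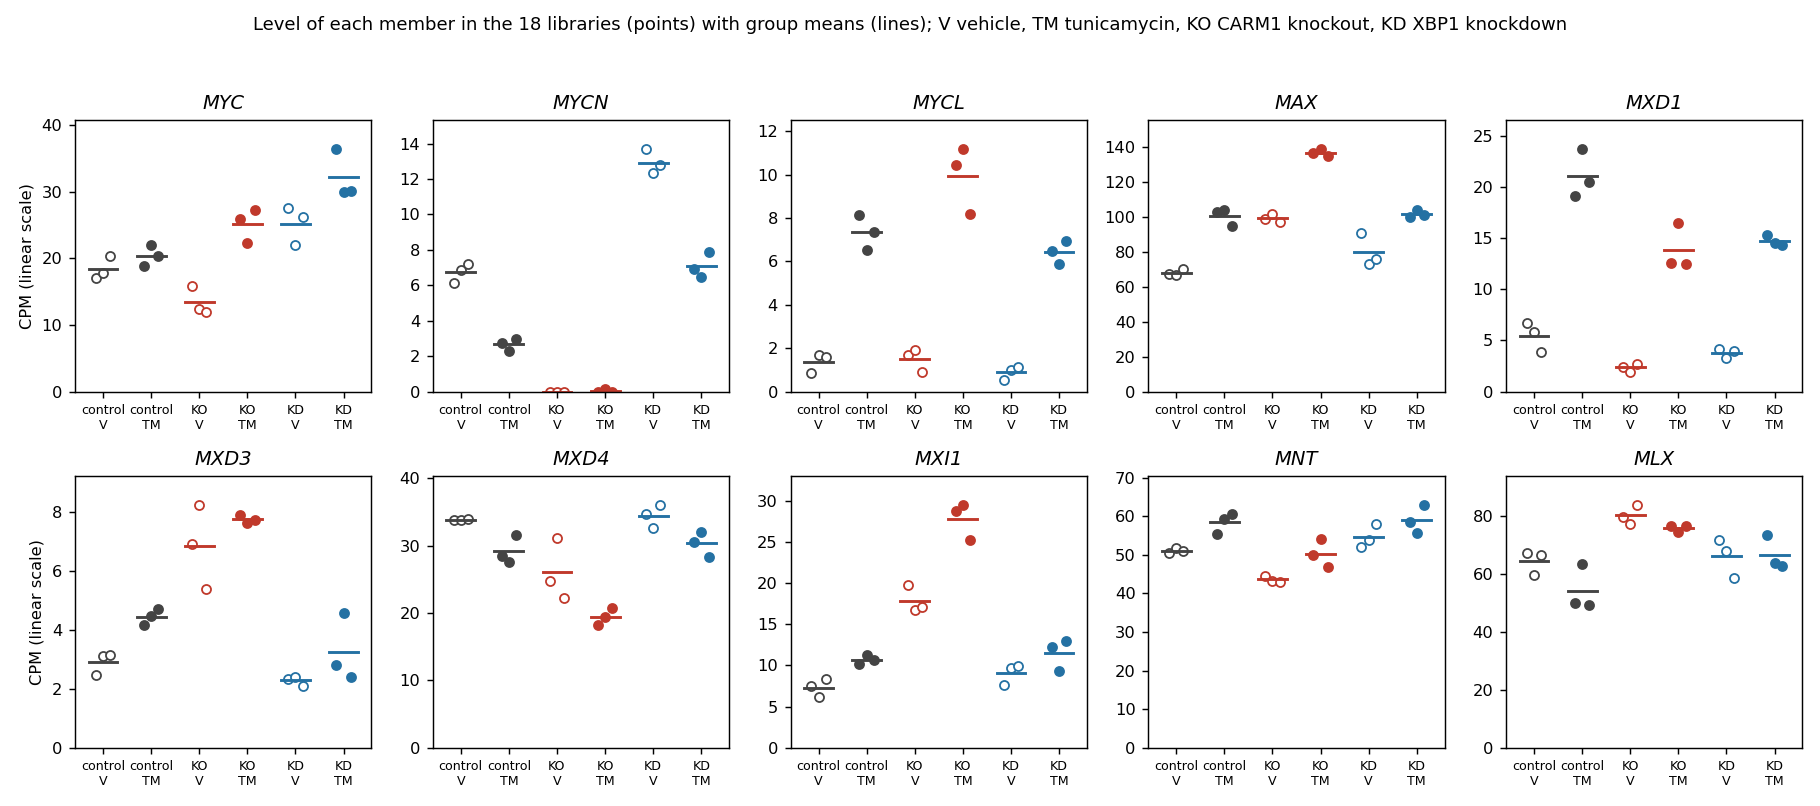
Level of the 10 members in each of the 18 libraries, in CPM on a linear axis from 0, with open points for vehicle, filled points for tunicamycin and a line at each group mean (n = 3). MYCN lies at or near 0 in all 6 CARM1 knockout libraries, and MYCL and MXD1 are higher with tunicamycin in every genotype.

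Of the repressors in control cells, MXD1 had the largest response. MXD1, an MXD gene induced during differentiation of many cell types, was at 6.72, 5.82 and 3.88 CPM with vehicle and at 19.1, 23.7 and 20.5 CPM with tunicamycin. The groups were far from overlapping, and MXD1 rose by 1.96 on the log2 scale (standard error 0.16, adjusted p = 6.62e-08). MXI1, also known as MXD2, rose by 0.55 (standard error 0.15, adjusted p = 0.0061), from 7.30 ± 1.11 to 10.7 ± 0.58 CPM. MXD3, which is linked to proliferating cells, rose by 0.61 (standard error 0.21, adjusted p = 0.026), and MNT, the most widely expressed antagonist of MYC, by 0.20 (standard error 0.07, adjusted p = 0.0284). MXD4 was at −0.21 on the log2 scale (standard error 0.08, adjusted p = 0.0517), just above the threshold. MLX fell by 0.25 (standard error 0.09, adjusted p = 0.0358), from 64.4 ± 4.13 to 54.1 ± 7.95 CPM. The calls of MXD3, MNT and MLX did not hold without each library in turn, though the fold changes kept their direction, at 0.51 to 0.67, 0.17 to 0.23 and −0.38 to −0.19 on the log2 scale. That of MXD3 was lost without vehicle replicate 1 (adjusted p = 0.0873) or tunicamycin replicates 2 or 3 (0.058 and 0.0892), and that of MLX without vehicle replicates 1 or 3 (0.117 and 0.0838) or tunicamycin replicates 1 or 3 (0.137 and 0.182). The call of MNT was lost without vehicle replicates 1 or 2 (0.0854 and 0.0559) or tunicamycin replicates 2 or 3 (0.071 and 0.125), and MXD4 was called without tunicamycin replicate 3 (0.0347). DESeq2 called neither MXD3 nor MNT (0.0845 and 0.0536), nor did a scale of library totals alone (0.0514 and 0.195), which called MXD4 (0.00923). With RLE factors MNT was not called (0.0527) and MXD4 was (0.0336), and MXD4 was also called when every library had to hold at least 10 counts of a gene (0.0375).

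In CARM1 knockout cells, tunicamycin raised 6 members and lowered 1, with 18% of all genes called higher and 21.4% lower. The median log2 fold change was 0.46 over the 9 members other than MYCN and −0.03 over all genes. MYC was among those that rose. It was at 15.9, 12.4 and 12.01 CPM with vehicle and at 26.0, 22.3 and 27.2 CPM with tunicamycin. Every tunicamycin library lay above every vehicle library, and MYC rose by 0.89 on the log2 scale (standard error 0.11, adjusted p = 1.2e-06). MYCL was at 1.71, 1.93 and 0.915 CPM with vehicle and at 10.5, 11.2 and 8.18 CPM with tunicamycin, a rise of 2.65 on the log2 scale (standard error 0.22, adjusted p = 1.28e-09). MXD1 was at 2.41, 1.93 and 2.75 CPM with vehicle and at 12.6, 16.5 and 12.5 CPM with tunicamycin, a rise of 2.57 (standard error 0.18, adjusted p = 7.59e-11). MYC, MYCL and MXD1 thus rose with no overlap between the treatments, where 48.4% of all genes tested had no overlap. The fibroblast marker sum was 462 to 501 CPM in these vehicle libraries and 186 to 215 with tunicamycin, and the epithelial sum was 2676 to 2770 and 2250 to 2354. Of 5 fibroblast markers, 1 was called higher and 2 lower with tunicamycin, and 2 were not called. Of 8 epithelial markers tested, 0 were called higher and 4 lower. All genes were at 18% and 21.4%. The part of these markers in these responses and in the interaction was not tested. MAX rose by 0.46 (standard error 0.04, adjusted p = 1.15e-08), MXI1 by 0.63 (standard error 0.10, adjusted p = 1.26e-05) and MNT by 0.20 (standard error 0.07, adjusted p = 0.0189). MXD4 fell by 0.43 (standard error 0.11, adjusted p = 0.00282), from 26.0 ± 4.62 to 19.4 ± 1.32 CPM. MXD3 and MLX had log2 fold changes of 0.16 and −0.08 that did not pass (adjusted p = 0.462 and 0.239). MYCN had 0 counts in each vehicle library and 0, 2 and 0 in the tunicamycin libraries, so no fold change is given. The call of MNT was lost without vehicle replicate 3 (adjusted p = 0.0536) or tunicamycin replicate 2 (0.138).

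In XBP1 knockdown cells, tunicamycin raised 4 members and lowered 1, with 19.7% of all genes called higher and 18.5% lower, and the median was 0.34 over the members and 0.0038 over all genes. MYC was at 27.5, 21.97 and 26.2 CPM with vehicle and at 36.4, 30.0 and 30.1 CPM with tunicamycin, a rise of 0.35 on the log2 scale (standard error 0.10, adjusted p = 0.013). The call was lost without vehicle replicate 2 (adjusted p = 0.0743) or tunicamycin replicate 1 (0.0816), the lowest and the highest of these 6 libraries. MYCN was at 13.7, 12.3 and 12.8 CPM with vehicle and at 6.91, 6.49 and 7.86 CPM with tunicamycin, and fell by 0.87 (standard error 0.13, adjusted p = 7.53e-05). MYCL was at 0.527, 0.992 and 1.122 CPM with vehicle and at 6.48, 5.88 and 6.95 CPM with tunicamycin, and rose by 2.85 (standard error 0.27, adjusted p = 5.22e-07). Neither MYCN nor MYCL overlapped between the treatments, nor did 47.4% of all genes tested. MXD1 was at 4.21, 3.26 and 3.93 CPM with vehicle and at 15.3, 14.6 and 14.4 CPM with tunicamycin, and rose by 1.96 (standard error 0.14, adjusted p = 3.73e-08). MAX rose by 0.35 (standard error 0.07, adjusted p = 0.00114). MXD3, MXD4, MXI1, MNT and MLX had log2 fold changes between −0.19 and 0.50 and were not called, and MXI1 was called when tunicamycin replicate 2 was left out (adjusted p = 0.0269) and MXD4 with library totals alone (0.0231). In all 3 genotypes, MYCL, MAX and MXD1 were called higher with tunicamycin, and each of these calls held without each library in turn.

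**Figure D2:**
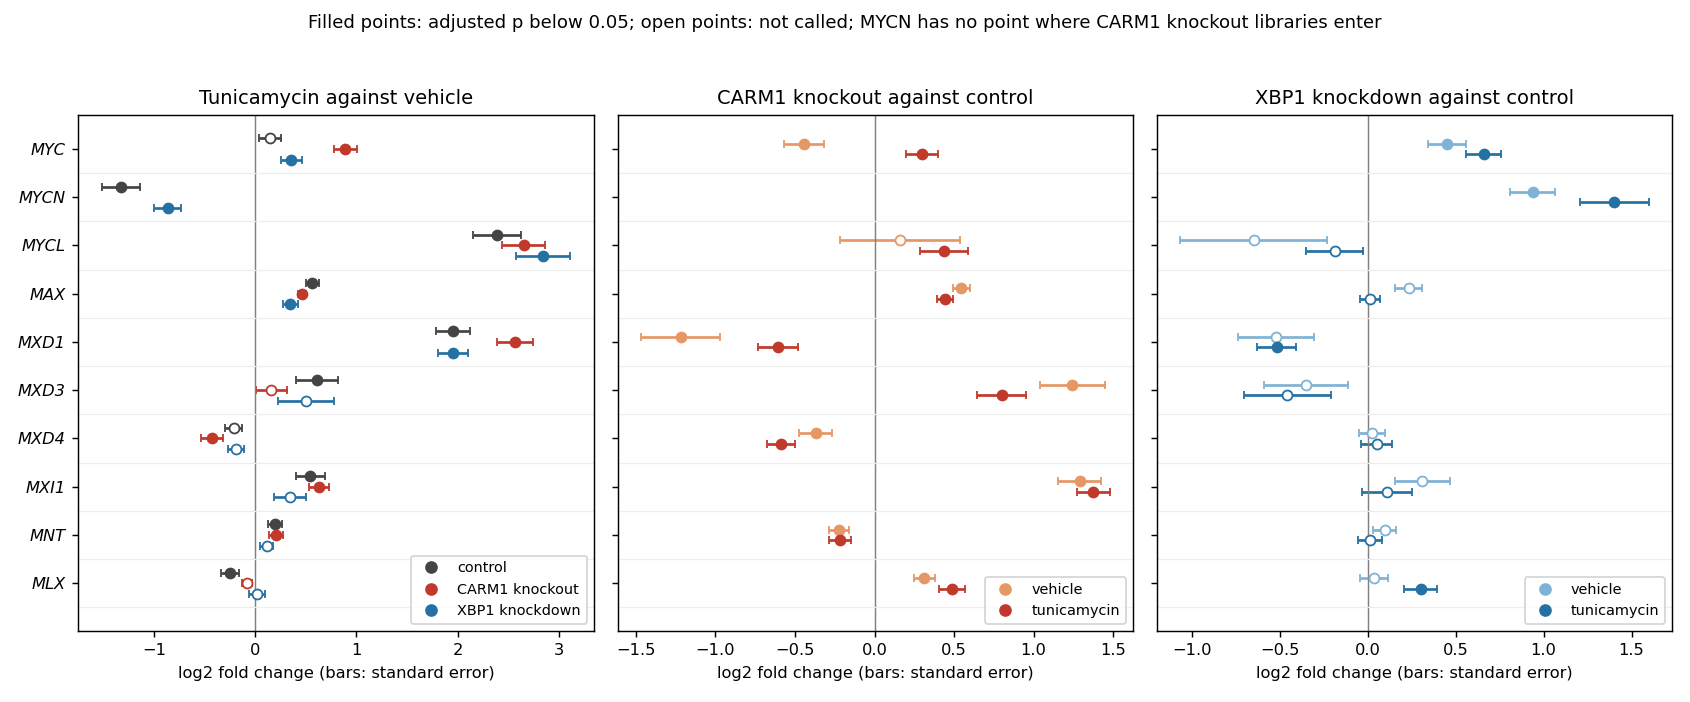
Log2 fold changes of the members on the horizontal axis with bars of 1 standard error, for tunicamycin against vehicle in each genotype, CARM1 knockout against control and XBP1 knockdown against control. Filled points passed an adjusted p of 0.05. MYC lies at 0.15 in control cells and 0.89 in knockout cells, and MYCN is not drawn where knockout libraries enter.

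A difference between the tunicamycin responses of a pair of genotypes was tested as an interaction term. For the knockout, MYC alone among the members was called, with a response larger by 0.74 on the log2 scale than in control cells (standard error 0.16, adjusted p = 0.00212). Over all genes, 10.3% were called higher and 12.7% lower in this interaction. The call of MYC held without each library in turn and under each other setting tried. MXD1 had a difference of 0.61 (standard error 0.28, adjusted p = 0.131), which was called when control vehicle replicate 3 was left out (0.82, adjusted p = 0.0232). MLX had a difference of 0.17 (adjusted p = 0.298), called without control tunicamycin replicate 2 (0.30, adjusted p = 0.0195). For MYCL, MAX, MXD3, MXD4, MXI1 and MNT the differences lay between −0.44 and 0.27 and did not pass, and for MYCN none is given. In the interaction of the XBP1 knockdown with tunicamycin, no member was called by edgeR or DESeq2 (0 of 10, 2 at an unadjusted p below 0.05), and 0.416% of all genes were called higher and 1.54% lower. The response of MYC was 0.21 larger than in control cells (standard error 0.15, adjusted p = 0.617).

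Most genes tested differed between CARM1 knockout and control cells, so the counts of members called are read against the shares over all genes. With vehicle, 4 members were called higher and 5 lower, beside 38.8% and 35.3% of all genes. With tunicamycin, 6 were called higher and 4 lower, beside 38.1% and 37.1% of all genes. Both counts of lower members include MYCN, which passed the filter through the libraries without the knockout. The median log2 fold change of the members was −0.03 and 0.37, and that of all genes 0.01 and −0.02. Every number of this comparison stands beside the difference in epithelial and fibroblast markers given above, and the groups share their libraries with the tunicamycin comparisons. MYCN went from 79, 93 and 108 counts in vehicle-treated control libraries to 0 in each vehicle-treated knockout library. Against a floor of 3 counts per library, or 0.276 CPM, the level was at least 24.4-fold lower. With tunicamycin, 33, 28 and 39 control counts stood against 0, 2 and 0, and the control level was 49.4 times the knockout level (95% interval 13.3 to 413, exact binomial, for counting error only). MYC was lower in the knockout with vehicle, at 13.4 ± 2.15 CPM against 18.4 ± 1.76, which is −0.44 on the log2 scale (standard error 0.12, adjusted p = 0.00465). With tunicamycin the direction was the opposite, at 25.2 ± 2.57 against 20.4 ± 1.58 CPM (0.30, standard error 0.10, adjusted p = 0.0131). The call with tunicamycin was lost without control replicate 1 (adjusted p = 0.051) or knockout replicate 3 (0.074), and when library totals alone set the scale (0.14, adjusted p = 0.203). MYCL had a log2 fold change of 0.16 with vehicle (adjusted p = 0.719, or −0.057 with library totals alone) and 0.44 with tunicamycin (adjusted p = 0.018), the second lost without control replicate 2 (0.0604), knockout replicates 1 or 2 (0.0646 and 0.0961) or with library totals alone (0.113).

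Library totals in place of TMM factors moved the median gene by −0.21 with vehicle and −0.16 with tunicamycin in this comparison, and the directions below were the same under that scale. MAX was higher in the knockout, at 99.0 ± 2.40 against 67.8 ± 1.79 CPM with vehicle (0.55, standard error 0.05, adjusted p = 2.19e-07) and by 0.44 with tunicamycin (adjusted p = 1.52e-06). MXI1 was at 19.7, 16.8 and 17.0 CPM in vehicle-treated knockout libraries and at 7.50, 6.11 and 8.30 CPM in control libraries. The groups did not overlap, as was so for 75.9% of all genes tested. MXI1 was higher by 1.29 on the log2 scale (standard error 0.13, adjusted p = 3.41e-07), with 1.38 under tunicamycin (adjusted p = 8.27e-09). MXD3 was higher too, by 1.24 with vehicle (standard error 0.20, adjusted p = 5.38e-05) and by 0.80 with tunicamycin (adjusted p = 0.000214). MXD1 moved the other way, with log2 fold changes of −1.22 (standard error 0.25, adjusted p = 0.000397) and −0.61 (standard error 0.13, adjusted p = 0.000453). MXD4 was lower, with −0.37 and −0.59 (adjusted p = 0.00488 and 2.87e-05). MNT was lower, with −0.22 under each treatment (adjusted p = 0.00521 and 0.0103), the second not called without knockout replicate 3 (0.0635) or by DESeq2 (0.0519). MLX was higher by 0.31 and 0.49 (adjusted p = 0.000378 and 7.87e-05), the first not called with library totals alone (0.098, adjusted p = 0.179). The repressors were thus split in the knockout, with MXI1 and MXD3 higher and MXD1, MXD4 and MNT lower than in control cells under both treatments.

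In XBP1 knockdown cells, MYC and MYCN were higher than in control cells under both treatments. With vehicle, 2 members were called higher and 0 lower, beside 2.34% and 2.94% of all genes, and with tunicamycin 3 were called higher and 1 lower, beside 6.96% and 8.65%. The medians were 0.07 and 0.03, and 0 over all genes. The control libraries are the same as those set against the knockout. MYCN was higher by 0.94 with vehicle (standard error 0.13, adjusted p = 0.000404) and by 1.40 with tunicamycin (standard error 0.20, adjusted p = 0.000136). Its knockdown libraries, at 12.3 to 13.7 CPM with vehicle and 6.49 to 7.86 with tunicamycin, did not overlap the control libraries of the same treatment. MYC was higher by 0.45 with vehicle (standard error 0.11, adjusted p = 0.0226) and by 0.66 with tunicamycin (standard error 0.10, adjusted p = 0.000292), with no overlap between the groups. Of all genes tested, 23.6% had no overlap with vehicle and 31.5% with tunicamycin. The call with vehicle was lost without control replicates 1 or 2 (adjusted p = 0.107 and 0.1) or knockdown replicates 1 or 3 (0.0972 and 0.0818). MXD1 had a log2 fold change of −0.52 under both treatments and was called lower with tunicamycin (standard error 0.11, adjusted p = 0.00426) but not with vehicle (adjusted p = 0.205, or 0.0424 without control replicate 3). MLX was higher by 0.30 with tunicamycin (adjusted p = 0.0364), a call lost without control replicates 1 or 3 (0.109 and 0.188) or any 1 of the knockdown replicates (0.151, 0.0516 and 0.0552). MAX had a log2 fold change of 0.23 with vehicle (adjusted p = 0.0985, or 0.0145 without the filter and 0.0219 with all groups in the fit) and 0.02 with tunicamycin (adjusted p = 0.914). MYCL, MXD3, MXD4, MXI1 and MNT did not pass under either treatment.

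The order of the groups differed between members. For MYC it ran, from the lowest mean, vehicle-treated knockout (13.4 CPM), vehicle-treated control (18.4), tunicamycin-treated control (20.4), tunicamycin-treated knockout (25.2), vehicle-treated knockdown (25.2) and tunicamycin-treated knockdown (32.2). The libraries of the control groups overlapped each other, as did those of tunicamycin-treated knockout and vehicle-treated knockdown cells. For MYCN the vehicle-treated knockdown cells were highest, at 12.9 ± 0.69 CPM, and vehicle-treated control (6.73) and tunicamycin-treated knockdown cells (7.08) overlapped. For MXD1 the 3 vehicle groups (2.36 to 5.47 CPM) lay below the 3 tunicamycin groups (13.8 to 21.1), and tunicamycin-treated control cells were highest. For MXI1 the knockout groups, at 17.8 and 27.8 CPM, lay above the other 4 groups, which were at 7.30 to 11.5. On the log2 scale MNT had the narrowest span of group means (0.43), from 43.7 to 59.0 CPM.

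Summed counts give the balance of activators and repressors within a library, free of the scaling between libraries. These are read counts without correction for length, so only shifts between groups are read from them. The log2 ratio of MYC, MYCN and MYCL to MXD1, MXD3, MXD4, MXI1 and MNT was −2.07, −1.94 and −1.78 in vehicle-treated control libraries and −1.98, −2.03 and −2.06 with tunicamycin. It was −2.48, −2.82 and −2.81 in vehicle-treated knockout libraries and −1.69, −1.92 and −1.67 with tunicamycin. In knockdown libraries it was −1.27, −1.53 and −1.46 with vehicle and −1.26, −1.46 and −1.43 with tunicamycin. Thus the treatments overlapped in control and knockdown cells and not in knockout cells, and the vehicle-treated knockout libraries were the lowest of all 18. The make-up of the sums shifted while the ratio in control cells stayed within its spread. MYCN gave 25.3% of the activator counts in vehicle-treated control cells and 8.80% with tunicamycin, while MYCL went from 5.25% to 24.1%. MXD1 went from 5.37% to 17.0% of the repressor counts and MXD4 from 33.7% to 23.6%. In knockout cells MYC gave 89.6% of the activator counts with vehicle and 71.6% with tunicamycin.

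**Figure D3:**
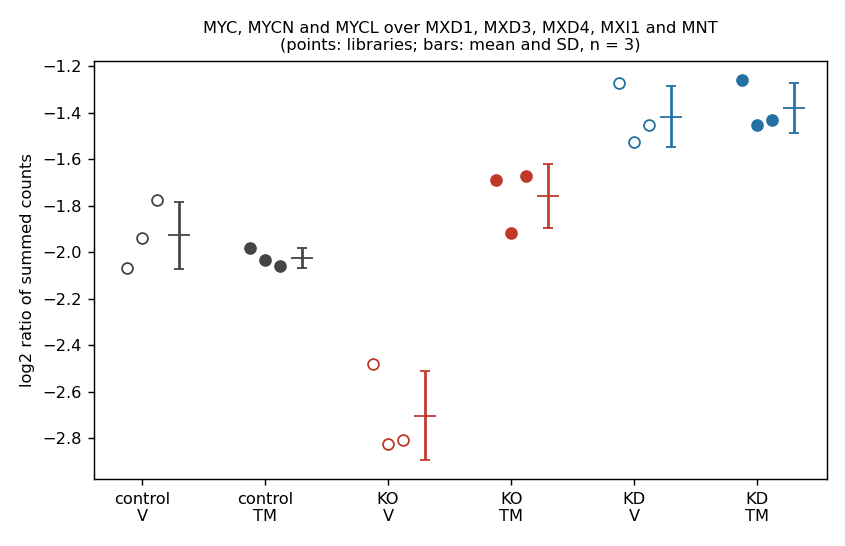
Log2 ratio of the summed counts of MYC, MYCN and MYCL to those of MXD1, MXD3, MXD4, MXI1 and MNT for each library, with the mean and SD of each group (n = 3). Vehicle-treated knockout libraries lie between −2.82 and −2.48, below all other libraries, and knockdown libraries between −1.53 and −1.26.

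Other genes of the network were read from lists written for this work. Of the 3 further partners, MGA, a large protein that binds MAX in a repressive complex, was at 70.7 ± 2.38 CPM in vehicle-treated control cells and 19.8 ± 1.11 in knockout cells (log2 fold change −1.84, standard error 0.07, adjusted p = 3.27e-12). Its tunicamycin responses were −0.03, 0.15 and 0.04 in control, knockout and knockdown cells, none of them called. MLXIP, which pairs with MLX, fell by 0.58 with tunicamycin in control cells (adjusted p = 2.27e-06) and had −0.12 in knockout cells (adjusted p = 0.0591), and this difference of 0.46 was called (adjusted p = 0.000217). Of 10 coactivators of MYC, 0 were called higher and 4 lower with tunicamycin in control cells, 3 higher and 1 lower in knockout cells, and 1 higher and 3 lower in knockdown cells. Of all genes, 21.4% were called higher and 20.4% lower in control cells, 18% and 21.4% in knockout cells, and 19.7% and 18.5% in knockdown cells. The median log2 fold changes of the coactivators were −0.14, 0.07 and −0.045, where those of all genes were −0.00044, −0.03 and 0.0038. The histone acetyltransferase KAT2A fell by 0.57 in control cells (adjusted p = 3.43e-05), and HCFC1, a chromatin cofactor, by 0.49 (adjusted p = 1.31e-06). In the knockout with vehicle, where 38.8% of all genes were called higher and 35.3% lower, 3 coactivators were higher and 6 lower, among the latter KAT2A (−1.01, adjusted p = 5.4e-08), the scaffold TRRAP (−0.985, adjusted p = 8.48e-07) and the ATPase RUVBL1 (−0.64, adjusted p = 3.69e-08).

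Of 8 corepressor genes of the MXD proteins, 1 was called higher and 0 lower with tunicamycin in control cells, beside 21.4% and 20.4% of all genes, with SAP30, a SIN3 subunit, up by 0.47 (adjusted p = 0.00178). In knockout cells 2 were higher and 3 lower (18% and 21.4% of all genes), and in knockdown cells 1 was higher and 0 lower (19.7% and 18.5%). In the knockout with vehicle 3 were higher and 4 lower, beside 38.8% and 35.3% of all genes. The SIN3 subunit SAP18 went from 202.5 ± 3.6 to 81.1 ± 3.6 CPM (−1.32, adjusted p = 2.13e-12), and the deacetylase HDAC1 from 209.9 ± 1.65 to 119.9 ± 1.64 CPM (−0.81, adjusted p = 2.17e-10). Of 10 genes that set the stability of MYC protein, 3 were called higher and 4 lower with tunicamycin in control cells (21.4% and 20.4% of all genes), 2 and 6 in knockout cells (18% and 21.4%), and 3 and 3 in knockdown cells (19.7% and 18.5%). SKP2, a ubiquitin ligase subunit, fell by 0.81 in control cells (adjusted p = 1.67e-08), and the deubiquitinase USP36 rose by 0.54 (adjusted p = 1.12e-06). In the knockout with vehicle 4 were higher and 4 lower, beside 38.8% and 35.3% of all genes. FBXW7, the ligase subunit that recognises phosphorylated MYC, was lower (−1.17, adjusted p = 5.22e-10), the phosphatase subunit PPP2R5A as well (−1.58, adjusted p = 2.71e-11), and the kinase GSK3B was higher by 1.18 (adjusted p = 1.27e-10). RNA levels say nothing of MYC protein, which was not measured in these libraries.

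Known targets of MYC were read as 2 lists of 20 genes, all of which were tested. Of the ribosome biogenesis genes, 8 were called higher and 5 lower with tunicamycin in control cells (median log2 fold change 0.06), 16 higher and 1 lower in knockout cells (median 0.30) and 10 higher and 4 lower in knockdown cells (median 0.17). Of all genes, 21.4% were called higher and 20.4% lower in control cells, 18% and 21.4% in knockout cells, and 19.7% and 18.5% in knockdown cells. Their medians were −0.00044, −0.03 and 0.0038. The E-box CACGTG was in 7 of their 20 RefSeq promoters. In the knockout interaction 8 of the 20 were called higher and 1 lower, beside 10.3% and 12.7% of all genes. GNL3, which encodes the nucleolar protein nucleostemin, rose by 0.96 in control cells (adjusted p = 1.69e-09), while BOP1, a factor of large ribosomal subunit assembly, fell by 0.97 (adjusted p = 0.00498) and UBTF, a factor of rRNA transcription, by 0.94 (adjusted p = 4.24e-09). BOP1 rose in knockout cells, by 0.52 (adjusted p = 0.0144), and the difference of 1.49 between the responses was called (adjusted p = 0.00265). Against control with vehicle, 4 of the 20 were higher and 10 lower in the knockout, beside 38.8% and 35.3% of all genes. PES1 was at −0.95 (adjusted p = 9.42e-09), WDR43 at −0.90 (adjusted p = 2.4e-11) and MYBBP1A at 0.66 (adjusted p = 3.56e-07). In the knockdown 3 were higher and 0 lower with vehicle, beside 2.34% and 2.94% of all genes. With tunicamycin 7 were higher and 1 lower, beside 6.96% and 8.65%. The medians of the list were 0.09 and 0.16.

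The metabolism and growth genes had the E-box in 10 of 25 promoters. With tunicamycin 3 were called higher and 7 lower in control cells, 7 and 7 in knockout cells, and 3 and 9 in knockdown cells, with medians of −0.07, −0.04 and −0.13. Of all genes, 21.4% were higher and 20.4% lower in control cells, 18% and 21.4% in knockout cells, and 19.7% and 18.5% in knockdown cells. Their medians were −0.00044, −0.03 and 0.0038. The transferrin receptor TFRC fell from 148 ± 6.73 to 40.6 ± 1.34 CPM in control cells (−1.86, adjusted p = 1.31e-12), PTMA by 0.99 (adjusted p = 2.25e-09) and TERT, the catalytic subunit of telomerase, by 0.99 (adjusted p = 0.000702). In the knockout with vehicle 5 were higher and 13 lower, beside 38.8% and 35.3% of all genes. The median was −0.35, and that of all genes 0.01. CCND2, which encodes cyclin D2, was at 1908 ± 22.2 CPM in control cells and at 0.674 ± 0.59 in knockout cells, TERT was at 6.41 ± 0.58 and 0.461 ± 0.14 CPM, and the hexokinase HK2 was lower (−1.78, adjusted p = 5.46e-11). In the knockdown 1 was higher and 0 lower with vehicle (median 0.05), beside 2.34% and 2.94% of all genes. With tunicamycin 5 were higher and 3 lower (median 0.04), beside 6.96% and 8.65%. In the knockout interaction 6 of the 20 were called higher and 0 lower, beside 10.3% and 12.7% of all genes.

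**Figure D4:**
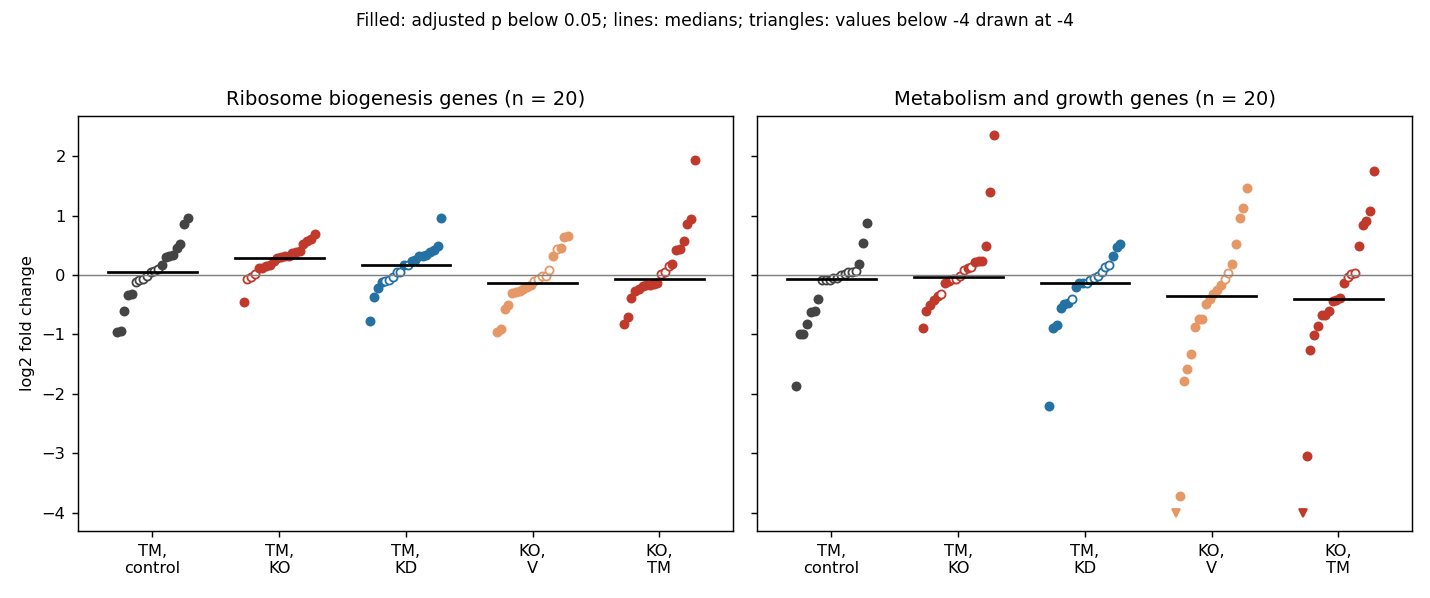
Log2 fold changes of 20 ribosome biogenesis genes and 20 metabolism and growth genes known as MYC targets, sorted within each comparison, with a line at the median and filled points for an adjusted p below 0.05 (TM tunicamycin against vehicle, KO CARM1 knockout against control, KD XBP1 knockdown, V vehicle). The ribosome biogenesis genes have a median of 0.30 for tunicamycin in knockout cells and 0.06 in control cells.

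MYC lies on chromosome 8 of GRCh37 from 128747680 to 128755197, and its surroundings differed in the knockout. Of 148 genes of the table whose start lies within 5 Mb of the start of MYC, 39 were tested. In the knockout with vehicle 28 of them were called higher and 3 lower, beside 38.8% and 35.3% of all genes, with a median log2 fold change of 1.25, where that of all genes was 0.01. With tunicamycin 28 were higher and 4 lower, beside 38.1% and 37.1% of all genes, with a median of 1.17. MYC itself was at −0.44 and 0.30, and 36 and 31 of the 39 had a higher fold change. PVT1, the long noncoding RNA gene next to MYC, starts 0.0591 Mb after it and was at 15.2 ± 2.25 CPM in vehicle-treated control cells and 41.5 ± 3.19 in knockout cells (1.45, standard error 0.11, adjusted p = 5.64e-09). CASC8, the nearest tested gene on the other side, had 0 counts in vehicle-treated control libraries and 21 to 35 in knockout libraries, at least 11.5-fold higher. Among those called higher under both treatments were ZHX2, FAM83A, ZNF572, CASC8 and ENSG00000253507, with at most 3 counts in every control library. They passed the filter through the knockout libraries, as did FBXO32, so their direction here was set by the filter. Setting the 5 genes at the floor in control cells to it could not move the medians, since all 5 stayed above them. Medians without these genes and FBXO32 were not taken. In the knockdown 0 of the 39 were called higher or lower with vehicle, beside 2.34% and 2.94% of all genes. With tunicamycin 2 were called higher and 4 lower in the knockdown, beside 6.96% and 8.65% of all genes. The expression of neighbours was all that was measured here, and gene copy number was not.

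Genes whose pattern was most like that of MYC were found by the Pearson correlation of log2 CPM over the 18 libraries, among the 9523 genes whose log2 CPM averaged 3 or more. They were ZNF121 (0.907), RRN3 (0.871), SLC35D2 (0.867), RRP9 (0.865) and URB1 (0.861). For MYCN, the member with the widest span of group means, they were SINHCAF (0.992), PUS3 (0.991), FZD8 (0.991), CBR3 (0.99) and CMBL (0.989). The libraries share groups and the knockout libraries stand apart, so these values describe a shared order of groups.

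Some counts could include reads of overlapping genes. For antisense genes this depends on the strand used in counting, which is not stated in the sources used here. Genes on the same strand are not told apart by strand. SNRNP27, on the same strand as MXD1, was at 119 to 217 CPM in the group means and had a log2 fold change of 0.14 with tunicamycin in control cells (adjusted p = 0.263), against 1.96 for MXD1. It was higher in the knockout with vehicle by 0.64 (adjusted p = 7.13e-07), where MXD1 was lower. RAB24, on the same strand as MXD3, rose by 0.97 with tunicamycin in control cells (adjusted p = 9.29e-08). PSMC3IP, antisense to MLX, was higher in the knockout by 1.14 with vehicle (adjusted p = 5.03e-08), as MLX was. FNTB, antisense to MAX, rose by 0.33 with tunicamycin in control cells (adjusted p = 0.0303) and had −0.16 in knockout cells (adjusted p = 0.115), where MAX rose under both. CASC11 and MYCL-AS1, antisense to MYC and MYCL, had at most 6 counts in any library, and MYCNOS, antisense to MYCN, at most 14.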

How the data were processed

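RNA from 18 libraries of A1847 cells was sequenced at the 3′ ends of mRNA as single reads. The authors aligned reads to hg19 with bowtie2 and estimated counts per gene with RSEM on Ensembl transcripts (RSEM 1.2.3 in the submitters' processing notes), and deposited the expected counts as 1 table of whole numbers, not normalized. Totals ranged from 9367462 to 13917212 counts per library. The counting strand is not given in the sources used here. GENCODE v44lift37 gave symbols and positions for 55501 of 57736 gene IDs.

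Genes were filtered with filterByExpr (minimum count 10) and scaled with TMM factors, both over all 18 libraries. They were tested with edgeR 4.0.16 (limma 3.58.1, R 4.3.3) by quasi-likelihood tests on the groups compared, with an interaction term for differences in response. P-values were adjusted over all 17317 genes by Benjamini-Hochberg and called at 0.05. The standard error is the fold change divided by the root of F. A fold against a group with 0 counts was bounded at a floor of 3 counts per library, and one against a group with 1 to 3 counts was given as a ratio with its interval, for counting error only. Fits were tested on simulated counts. Alternatives were DESeq2 1.42.0, RLE factors, library totals, a fit of all groups together, a stricter filter (10 counts or more in each library) or no filter, the replicate number as a block, and leaving out each library.

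The members and gene lists were chosen with earlier results of these data known. Named genes were the members, the tested neighbours of MYC, CARM1 and XBP1, the 5 genes most correlated with MYC and with the member of widest range, and in each list the 3 genes with the largest called change, not overlapping between groups, for tunicamycin in control cells and for the knockout with vehicle. Lists held other MAX or MLX partners, coactivators, corepressors, turnover genes, MYC targets, genes reported as repressed by MYC, MondoA-MLX targets and cell type markers. A named gene of the corepressor list is not reported here.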

Additional observations from a re-analysis of the deposited data

Results flagged for a closer look

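The response of MYC to tunicamycin differed between genotypes by the test of the interaction. It was larger in CARM1 knockout than in control cells by 0.74 on the log2 scale (standard error 0.16, adjusted p = 0.00212, edgeR quasi-likelihood test). Vehicle and tunicamycin libraries were at 17.1 to 20.4 and 18.9 to 22.01 CPM in control cells, and at 12.01 to 15.9 and 22.3 to 27.2 CPM in knockout cells. Among the 39 tested genes near MYC, 0 were called higher and 2 lower in this interaction, beside 10.3% and 12.7% of all genes. HMGB1P19 (1.14, adjusted p = 0.302) and FBXO32 (0.78, adjusted p = 0.625) had a larger value than MYC and were not called. They averaged 0.493 and 0.183 CPM in vehicle-treated control cells. A part of these neighbours in the response of MYC was not tested.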

How the results depend on the processing

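Of 86 values of single members, 44 were called, 33 of these under every alternative, 34 without each library in turn, and 0 changed sign. Of the 42 not called, 7 were called under at least 1 alternative and 11 had another sign under at least 1. Those were MLX for tunicamycin in knockdown cells (−0.045 with library totals, −0.066 to 0.077 without single libraries) and MYCL in the knockout with vehicle (−0.057 with library totals, −0.083 to 0.38). Leaving out single libraries gave −0.0071 to 0.063 for MXD4 and −0.027 to 0.12 for MLX in the knockdown with vehicle, and −0.027 to 0.040 for MAX and −0.038 to 0.051 for MNT with tunicamycin. In the knockout interaction it gave −0.020 to 0.20 for MXI1 and −0.050 to 0.058 for MNT. In the knockdown interaction it gave −0.17 to 0.20 for MXD1, −0.41 to 0.060 for MXD3 and −0.015 to 0.088 for MXD4, and MXD1 was at −0.0042 with DESeq2, −0.0080 with no filter, −0.00020 with all libraries in one fit and −0.0084 with the replicate block. The cause was not tested. Counts of members without single libraries were 4 to 6 higher and 1 to 2 lower for tunicamycin in control cells, 5 to 6 higher in knockout and 3 to 5 in knockdown cells. They were 5 to 6 higher and 3 to 4 lower for the knockout with tunicamycin, 1 to 2 higher and 0 to 1 lower for the knockdown with vehicle, 2 to 3 higher with tunicamycin, and 1 to 2 higher in the knockout interaction. With library totals, 2 members were lower for tunicamycin in knockdown cells, MYCN and MXD4. Without MNT, the log2 count ratio was −0.91 and −1.10 in control, −1.83 and −0.97 in knockout and −0.35 and −0.39 in knockdown cells (vehicle, tunicamycin).

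Replicate numbers did not pair the libraries: deviations of same-numbered libraries correlated at −0.048 to 0.0387 over 21 pairs. With the replicate block, all 18 counts of members were equal and 0 calls were lost. Over all genes, the 405 called higher in the knockdown with vehicle became 696 with all libraries in one fit, 724 with no filter and 157 to 618 without single libraries, and the 509 lower fell to 282. The 1206 higher and 1498 lower with tunicamycin fell to 609 and 926. The 72 higher in the knockdown interaction became 119, 213, 47 with the replicate block and 29 to 114 without single libraries, and the 267 lower became 573 with no filter. Depth limits MYCN in the knockout, where a count of 0 allows up to 3.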

Other observations

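Genes reported as repressed by MYC went in several directions. Of 10 listed, 9 were tested. With tunicamycin 2 were called higher and 2 lower in control cells, beside 21.4% and 20.4% of all genes. In knockout cells 4 were higher and 3 lower (18% and 21.4% of all genes), and in knockdown cells 3 and 1 (19.7% and 18.5%). GADD45A, a stress-induced gene of growth arrest, rose from 30.5 ± 1.19 to 111 ± 3.82 CPM in control cells (log2 fold change 1.86, adjusted p = 2.22e-12), while CDKN1C, a cyclin-dependent kinase inhibitor, fell by 1.42 (adjusted p = 0.00178) and NDRG2 by 0.83 (adjusted p = 0.00023). In the knockout with vehicle 6 were higher and 2 lower, beside 38.8% and 35.3% of all genes. THBS1, which encodes thrombospondin 1, was at 0.627 ± 0.22 CPM in control cells and at 264 ± 7.3 in knockout cells. CDKN2B was at 0.173 ± 0.20 and 10.1 ± 1.34 CPM, and NDRG1 at 0.144 and 71.7 CPM. The control libraries of NDRG1 were at or under 3 counts, and those of CDKN2B were near that level. From such levels a gene can hardly be called lower, so the 6 called higher are read with that limit. The marker differences given in the report stand beside these values too. Of the MondoA-MLX targets, ARRDC4 was tested, and it was at 0.0515 CPM in vehicle-treated control cells and 1.94 ± 1.21 with tunicamycin.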
